A study of Mus musculus with 15 samples.

Results

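The genes of the mitochondrial genome were followed in RNA from mouse embryonic stem cells with a knockdown of Tet1 or Tet2, whose proteins convert 5-methylcytosine to its hydroxylated form. They were chosen by name, as every row of the deposited gene table that begins with mt-. This gave 13 of 26061 rows, and all 13 are protein-coding. The mm9 annotation also places 2 rRNA genes and 22 tRNA genes on this genome, which are not analysed here. The cells were of the E14 line, of 129/Ola background, grown on gelatin without feeder cells in medium with serum and LIF. All 3 groups received a pLKO.1 lentivirus and were kept in puromycin, from 24 h after infection, for 3 days. The vector carried a non-targeting hairpin in shScr, a hairpin against Tet1 in shTet1 and a hairpin against Tet2 in shTet2. Each group had 5 libraries of rRNA-depleted total RNA and a single hairpin, so effects of a target and of its hairpin sequence cannot be told apart. The labels do not say that replicates were separate infections, so p-values measure the spread between these libraries, which may be technical.

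The mitochondrial genome is a small circle present in many copies per cell. It encodes core subunits of the respiratory chain and of ATP synthase, and the rRNAs and tRNAs with which they are translated inside the organelle. Both strands are transcribed from end to end by a dedicated polymerase, POLRMT, with the help of TFAM and TFB2M, and the long precursors are cut at the tRNAs. All other subunits of these complexes, and all factors for transcription and RNA turnover, are encoded in the nucleus. Pieces of mitochondrial DNA have also been copied into nuclear chromosomes, and reads from such copies and from the organelle cannot be told apart where their bases are the same.

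Such copies bear on these genes, so the relevant sequences are shown first. Alignment of the mitochondrial genome, 16299 bases long, to the rest of mm9 gave 42 nuclear stretches. The longest lies on the minus strand of chr1:24618374-24623027 and matches mitochondrial positions 6390 to 11042 with 99.936% identity. Only 3 differences were found over its length, which runs from the end of mt-Co1 into mt-Nd4. They were the substitution A6393T in mt-Co1, the substitution T9461C in mt-Nd3, and an A inserted after position 9828 in a tRNA gene. Positions count from 1 on the mitochondrial reference, and the mitochondrial base is written first. The substitution in mt-Nd3, in capitals with 20 bases on each side, is the only one that lies well inside the copy. It is shown for chrM:9441-9481, plus strand, and for chr1:24619936-24619976, minus strand.
mitochondrial: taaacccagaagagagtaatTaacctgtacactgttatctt
nuclear: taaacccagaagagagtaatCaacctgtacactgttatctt

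The gene mt-Nd4l, at chrM:9877-10173 on the plus strand, encodes a small subunit of complex I. All 297 bases of its single exon recur in Gm10222 (ENSMUSG00000067736), an annotated nuclear gene at chr1:24619243-24619539 on the minus strand. The run is therefore printed once for both.
mt-Nd4l and Gm10222: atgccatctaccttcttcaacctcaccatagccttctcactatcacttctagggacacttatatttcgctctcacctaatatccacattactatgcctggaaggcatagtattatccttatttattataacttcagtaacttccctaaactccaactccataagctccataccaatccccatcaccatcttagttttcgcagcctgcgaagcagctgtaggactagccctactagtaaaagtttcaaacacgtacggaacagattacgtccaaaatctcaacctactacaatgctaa

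A second nuclear gene of the same copy, Gm10925 (ENSMUSG00000090378, chr1:24620814-24621627, minus strand), has 2 exons with 772 bases, all identical to the organelle. They hold 180 bases of mt-Atp8 and 635 of mt-Atp6, the genes of the ATP synthase subunits encoded here. These mitochondrial genes share 43 bases at chrM:7927-7969, shown because a read within them belongs to both.
mt-Atp8 and mt-Atp6 overlap: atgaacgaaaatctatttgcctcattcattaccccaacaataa

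Reads were 75 bases long, so each gene was divided into every stretch of 75 bases and searched for in the nuclear genome. Every stretch of mt-Co2, mt-Atp8, mt-Atp6, mt-Co3 and mt-Nd4l had an exact nuclear match, as did 98.9% of those of mt-Nd3. The share was 61.5% for mt-Nd4 and 39.8% for mt-Co1. It was 5.71% for mt-Nd2 and 1.66% for mt-Nd5, and no stretch of mt-Nd1, mt-Nd6 or mt-Cytb had a match. The 13 genes thus range from fully distinguishable to fully shared. Of 12 annotated genes with an exon in a nuclear copy, only Gm10222 and Gm10925 had a row in the gene table. The sequences are those of the mm9 reference and not of the 129/Ola cells.

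Reads in all genes ranged from 15258291 to 35432425 per library. The targets were checked on the deposited variance-stabilised values, which lie on a log2-like scale. Tet1 was lower in shTet1 (12.15 ± 0.18) than in shScr (13.99 ± 0.21; SD, n = 5 each; exact permutation test, p = 0.00794). Tet2 was lower in shTet2 (11.42 ± 0.20) than in shScr (13.33 ± 0.15; SD, n = 5 each; exact permutation test, p = 0.00794). That p is the smallest that 5 against 5 libraries allow. All 10 markers of embryonic stem cells had reads in every library, with a sum of 4129 to 6921 reads per 1000000 gene reads outside the mitochondrial genome (RPM). The 6 markers of fibroblasts and feeder cells summed to 3.02 to 10.3 RPM. Genes of olfactory and vomeronasal receptors, which these cells are not known to use, held 9.57 to 26.3 RPM in 11 libraries and 53.3 to 63.4 in 4 (shScr replicate 4, shTet1 replicates 3 and 4, and shTet2 replicate 4).

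All 13 mitochondrial genes were listed at 0 in 9 of the 15 libraries. These were replicates 3, 4 and 5 of shScr, of shTet1 and of shTet2. In the 6 libraries of replicates 1 and 2, every mitochondrial gene had at least 524 reads. The genes together held 369782 to 637597 reads there, which was 2.04% ± 0.34 of gene reads (SD, n = 6). The libraries of shScr held 2.40% and 1.99%, those of shTet1 held 1.47% and 1.91%, and those of shTet2 held 2.09% and 2.37%. For shScr the mean was 2.19% ± 0.29, for shTet1 1.69% ± 0.31 and for shTet2 2.23% ± 0.20 (SD, 2 libraries per group). The presence of values therefore followed the replicate number and not the hairpin. The sources used here do not state whether the mitochondrial genome was part of the reference and annotation used for each library. A listed 0 in the 9 other libraries is therefore not read as a measured level, and no upper limit is derived from it.

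**Figure D1:**
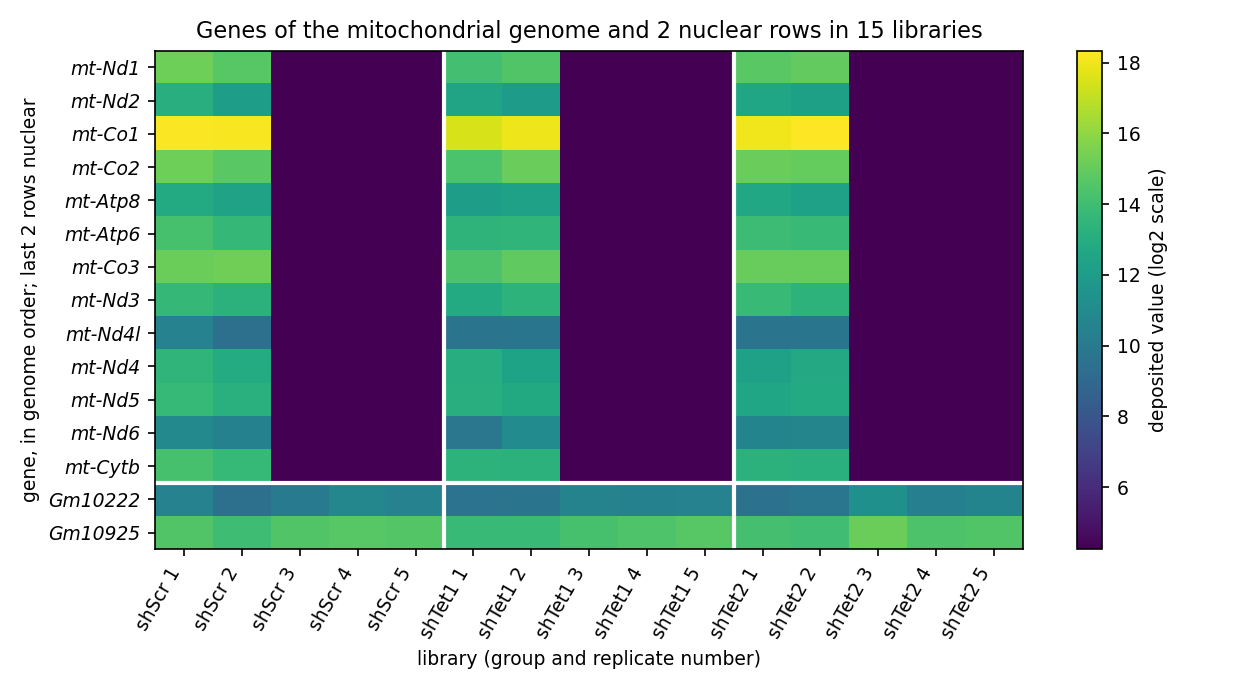
Deposited value (colour, log2 scale) of the 13 mitochondrial genes and of the nuclear rows Gm10222 and Gm10925 (rows) in 15 libraries (columns, by group and replicate number). All 13 mitochondrial genes sit at the table minimum of 4.25 in replicates 3 to 5 of every group, while both nuclear rows have values in all 15 libraries.

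No other row behaved in this way. Exactly 13 rows of the table had at least 10 reads in each of the 6 libraries of replicates 1 and 2 and 0 in all 9 others, and all 13 were mitochondrial. In the reverse direction, 2 rows had 0 in all 6 and at least 10 reads in each of the 9. Without overlap between the 6 and the 9 libraries, 1.2% of 19490 tested rows were lower in replicates 3 to 5. Values in replicates 3 to 5 minus those in replicates 1 and 2 ranged from -13.79 to -5.55 for the mitochondrial genes, with a median of -9.12. The median over all tested rows was 0.03. Among rows outside the mitochondrial genome the lowest difference was -1.94, for Lefty1, which encodes an inhibitor of Nodal signalling. The size of these mitochondrial differences depends on the value that the table gives to 0 reads. No test was made, since the split of the replicates had been found in these same values.

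The nuclear genes that serve the same complexes had values throughout. All 75 nuclear subunits of complexes I to V had reads in all 15 libraries. Of these 75, 2 were lower in replicates 3 to 5 without overlap, against 1.2% of all rows. The median difference of replicates 3 to 5 from replicates 1 and 2 was 0.03 for 36 complex I subunits and -0.08 for 11 complex IV subunits. For the 77 mitochondrial ribosomal proteins it was 0.06, and for the 17 genes of mitochondrial DNA transcription and replication it was 0.14. The lowest median of any list was -0.19, for 19 mitochondrial aminoacyl-tRNA synthetases, of which 16 were lower in replicates 3 to 5. Tfam, which packages mitochondrial DNA and activates its transcription, was 0.14 higher, and Polrmt was 0.30 lower. Polg was at -0.52 by the same measure. The subunit genes of the nucleus and of the organelle thus differed in this respect, over the same libraries.

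The nuclear copies showed a second regularity. In the 6 libraries with mitochondrial values, Gm10222 held 49.5% ± 0.94 (SD, n = 6) of the reads of mt-Nd4l and Gm10222 together, with a range of 48.2% to 50.6%. It held 1348 reads beside 1368 of mt-Nd4l in shScr replicate 1, and 533 beside 524 in shScr replicate 2. In shTet1 it held 1037 beside 1052 and 1017 beside 1074 reads, and in shTet2 922 beside 990 and 1090 beside 1066. The reads of these identical rows were thus close to equal in each of the 6 libraries. The authors kept each read with several equally good positions at only 1 of them. Gm10925 held 46.7% ± 0.44 (SD, n = 6) of the reads of mt-Atp8, mt-Atp6 and Gm10925 together, between 46.0% and 47.1%.

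In replicates 3 to 5 both nuclear rows held all reads of their sums. Gm10222 had 41.4 ± 12.5 RPM (SD, n = 6) in replicates 1 and 2, and 68.4 ± 18.4 (SD, n = 9) in replicates 3 to 5. The sum of mt-Nd4l and Gm10222 was 83.7 ± 25.1 in the first set and 68.4 ± 18.4 in the second, over ranges of 58.0 to 132 and 45.6 to 110. Gm10925 had 818 ± 166 and 1116 ± 225 RPM in the same sets. Its sum with mt-Atp8 and mt-Atp6 was 1754 ± 360 and 1116 ± 225. The ranges of these sums overlapped between the sets, at 1436 to 2347 and 841 to 1652. That overlap came from shTet2 replicate 3 alone, and the other libraries of replicates 3 to 5 lay lower, at 841 to 1233. Reads with these bases were thus counted in all 15 libraries, and in 9 of them all such reads stood under nuclear names. The listed 0 of mt-Nd4l thus stood beside 934 to 2152 reads of its exact bases under Gm10222 in the same libraries. Why no read stood under a mitochondrial name there was not tested.

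**Figure D2:**
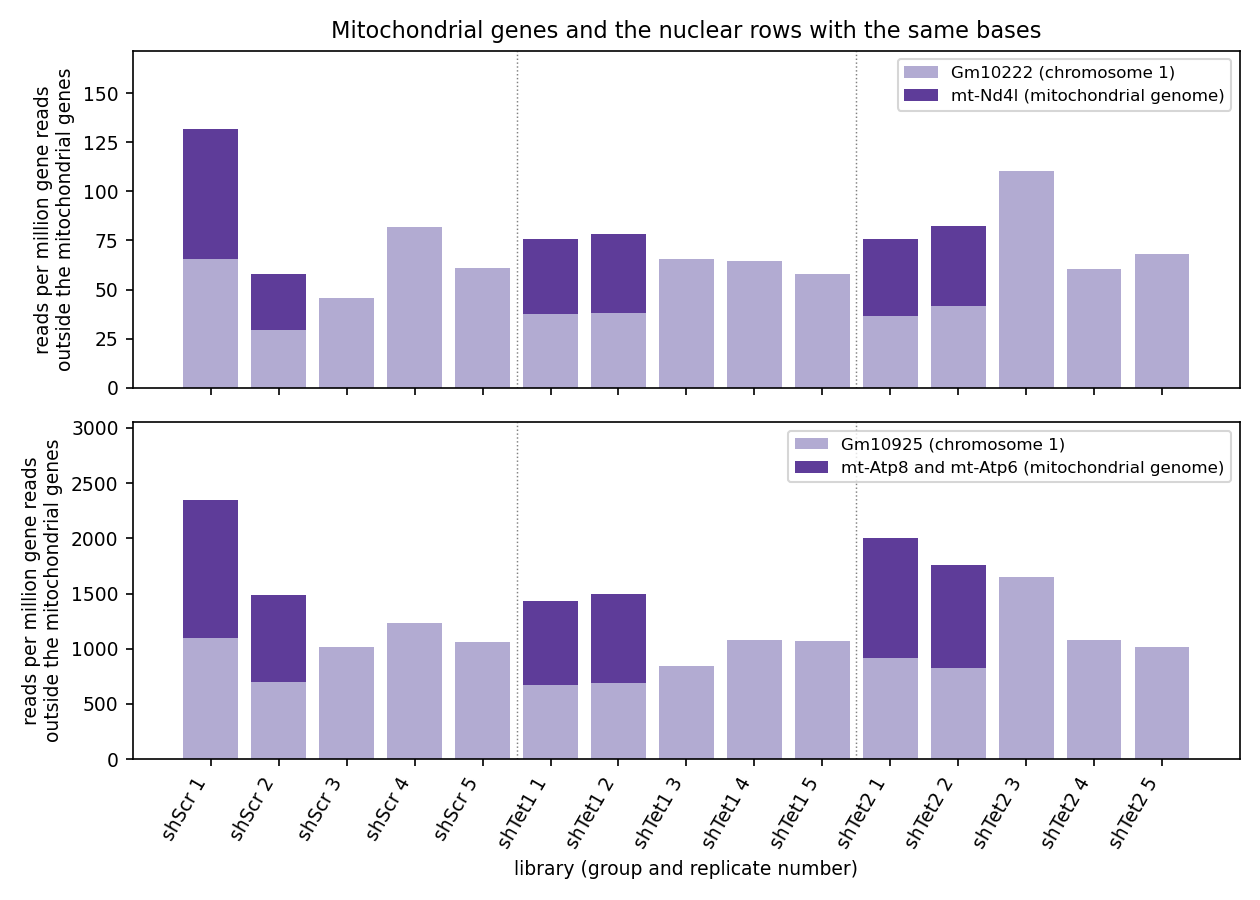
RPM (vertical axis, reads per 1000000 gene reads outside the mitochondrial genes) for mt-Nd4l and Gm10222 (top) and for mt-Atp8, mt-Atp6 and Gm10925 (bottom), stacked in each of 15 libraries. In replicates 1 and 2 the nuclear part is 48.2% to 50.6% of the bar (top) and 46.0% to 47.1% (bottom), and in replicates 3 to 5 it is the whole bar.

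Neither nuclear row passed the test between groups over all 15 libraries. For Gm10222 the value was 10.26 ± 0.51 (shScr), 10.16 ± 0.47 (shTet1) and 10.32 ± 0.69 (shTet2), on the log2 scale with SD over 5 libraries. Gm10925 was at 14.45 ± 0.28, 14.18 ± 0.41 and 14.46 ± 0.45. The lowest p of 6 exact permutation tests was 0.238, for Gm10925 in shTet1 against shScr (n = 5 each), with all 6 at 0.968 after adjustment by Benjamini-Hochberg. The limma interval of that difference was -0.73 to 0.18 on the log2 scale.

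Levels of the 13 genes could be compared in the 6 libraries with values, as RPM per kilobase of the gene. They spanned a wide range. The subunits of complex IV, cytochrome c oxidase, stood highest. The catalytic subunit mt-Co1 (chrM:5328-6872) was at 8540 ± 1598 per kilobase (SD, n = 6) and alone held 63.3% ± 3.0 of mitochondrial reads. The shScr libraries had 9494 and 8685, those of shTet1 had 5851 and 8014, and those of shTet2 had 8579 and 10620. It exceeded the next gene in all 6 libraries. The other complex IV subunits, mt-Co2 (2237 ± 494) and mt-Co3 (2024 ± 351), followed, and mt-Co2 was above mt-Co3 in 5 of 6 libraries. Together the 3 genes held 74.4% to 81.3% of mitochondrial reads.

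The 7 subunits of complex I, the NADH dehydrogenase, were spread over most of the range. By reads under mitochondrial names, the highest were mt-Nd3 (1483 ± 320) and mt-Nd1 (1374 ± 343), and mt-Nd3 was above mt-Nd1 in 4 of 6 libraries. Much lower stood mt-Nd2 (262 ± 79.8), mt-Nd4 (260 ± 76.3) and mt-Nd5 (229 ± 60.9). The order of mt-Nd2 and mt-Nd4 was not stable, with mt-Nd2 above in 2 of 6 libraries. Lowest among the reads under mitochondrial names were mt-Nd6 (143 ± 39.9) and mt-Nd4l (142 ± 42.7), whose difference was far within their spread. This rank of mt-Nd4l holds only without the reads of its identical nuclear row. With Gm10222 added, it was at 282 ± 84.6 per kilobase (SD, n = 6), above mt-Nd6 in all 6 libraries and above mt-Nd2 and mt-Nd4 in 4 of 6. The measures are unlike for mt-Nd4, as 61.5% of its stretches had a nuclear match and reads at that copy could not be added. The gene mt-Nd6 is the only one of the 13 on the minus strand. It shares 14 bases with mt-Nd5 on the other strand, and the use of strand in the counting is not stated. Complex I genes held 12.8% to 16.8% of mitochondrial reads.

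The ATP synthase subunits mt-Atp8 (1318 ± 273) and mt-Atp6 (979 ± 207) lay between mt-Nd1 and mt-Cytb by their means. The order of mt-Nd1 and mt-Atp8 was not stable, with mt-Nd1 above in 3 of 6 libraries. Both come from 1 transcript, and mt-Atp8 was above mt-Atp6 in all 6 libraries. Lengths were not corrected for the 75 bases of a read, which weigh more on the 204 bases of mt-Atp8 than on the 681 of mt-Atp6. The lone complex III gene, mt-Cytb, encodes cytochrome b and was at 502 ± 145 (SD, n = 6). These levels count only the reads listed under mitochondrial names. With the reads of Gm10925 added, the sum of mt-Atp8 and mt-Atp6 was 1754 RPM instead of 936, so these levels too would stand higher. No rows for the nuclear copies of mt-Co1, mt-Co2, mt-Co3 or mt-Nd3 were in the table, nor for that of mt-Nd4 beyond 7 bases. Reads placed at those copies are missing from the levels. The order of genes with unlike shares of nuclear matches, such as mt-Nd3 (98.9%) and mt-Nd1 (0%), is thus one of listed reads and not of RNA.

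**Figure D3:**
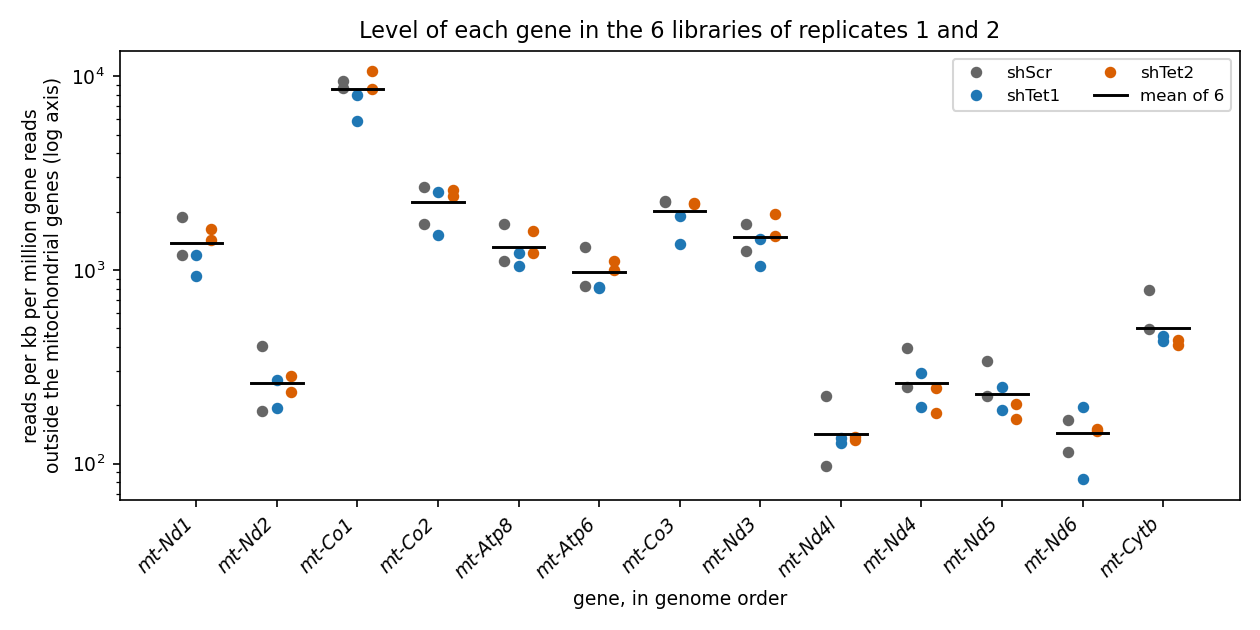
RPM per kilobase (vertical, log axis) of the 13 genes in genome order (horizontal), in the 6 libraries of replicates 1 and 2, coloured by group, with the mean of 6 as a bar. Levels of reads under mitochondrial names run from 8540 for mt-Co1 to 142 for mt-Nd4l, and the groups overlap or lie close for most genes.

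The make-up of the mitochondrial reads varied between libraries of the same group. For mt-Co1 the share was 59.7% and 66.1% (shScr), 60.7% and 63.5% (shTet1), and 62.1% and 67.5% (shTet2). In each group the library with the lower share of mt-Co1 was replicate 1, and it had the higher share of complex I genes. On the log2 scale, the 2 libraries of shScr differed by a median of 0.52 over the 13 genes, against 0.31 over all tested rows. In shTet1 the medians were 0.45 and 0.19, and in shTet2 they were 0.21 and 0.18. The widest gap was that of mt-Nd6 in shTet1, at 9.82 and 11.06. By these medians the mitochondrial genes differed more between replicates than the typical row did. The excess was small in shTet2, where gaps of single genes ran from 0.0004 to 0.43.

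The effect of each knockdown was first tested in all 15 libraries with limma, which takes the listed 0 as values. None of the 13 genes was called in shTet1 against shScr, where 0.0718% of all 19490 tested rows were called at an adjusted p under 0.05. None was called in shTet2 against shScr, with a background of 0.39%, or in shTet2 against shTet1, with a background of 4.24%. None of the 13 had an unadjusted p under 0.05 in these 3 comparisons. Since 9 libraries were at 0, the 95% intervals reached 3.25 to 8.03 on the log2 scale to each side of the difference. The test could therefore not resolve even large changes, and medians of the 13 differences (-0.18, -0.05 and 0.11) carry little information. The genes passed the filter on low values only through replicates 1 and 2.

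Within the 6 libraries of replicates 1 and 2, 2 against 2, the 95% intervals were 0.44 to 0.82 to each side. In shTet1 against shScr, all 13 genes had a lower mean, with differences from -0.62 to -0.23 and a median of -0.46, against 0.02 over all 18738 rows tested. Without shScr replicate 1 the median was -0.20, with 10 genes lower and 3 higher. None of the 13 passed the threshold, where 1.99% of all rows did, and 4 had an unadjusted p under 0.05 (limma), against 23.7% of all rows. These were mt-Nd1, mt-Atp6, mt-Co3 and mt-Cytb. The value of mt-Co3 was 15.19 and 15.29 in shScr, and 14.40 and 14.89 in shTet1. Both libraries of shTet1 thus lay below both of shScr, with a difference of -0.60 (95% interval -1.04 to -0.15, limma adjusted p = 0.122). For mt-Cytb the values were 14.22 and 13.66 in shScr, and 13.37 and 13.30 in shTet1. The groups again did not overlap, and the difference was -0.61 (95% interval -1.06 to -0.16, limma adjusted p = 0.123). For mt-Nd1 the values were 15.21 and 14.67 in shScr and 14.13 and 14.52 in shTet1, a difference of -0.62 (limma adjusted p = 0.156). In all, 7 of 13 genes were lower in shTet1 without overlap on the deposited values, against 25.2% of all tested rows. That count depends on the scaling. On RPM, mt-Nd1, mt-Atp8 and mt-Nd5 of these overlapped between the groups, while mt-Co1, mt-Atp6, mt-Co3 and mt-Cytb did not. On log2 RPM the median was -0.35, with all 13 means lower and 1 unadjusted p under 0.05 (limma), against 4422 of 18738 rows. The 13 genes share library, scaling and transcripts and are not independent of each other.

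In shTet2 against shScr the differences varied along the genome. None of the 13 genes was called, with a background of 0.0374% of rows, and 3 had an unadjusted p under 0.05 (limma), against 19.2% of all rows. These were mt-Nd4, mt-Nd5 and mt-Cytb. The values of mt-Nd5 were 13.68 and 13.19 in shScr and 12.61 and 12.87 in shTet2. Its difference was -0.69 (95% interval -1.19 to -0.20, limma adjusted p = 0.145). For mt-Nd4, with 13.48 and 12.94 in shScr and 12.31 and 12.74 in shTet2, it was -0.69 (limma adjusted p = 0.207). For mt-Cytb, with 13.28 and 13.21 in shTet2, it was -0.70 (limma adjusted p = 0.125). These are the last 3 protein genes of the plus strand. Differences of the 10 other genes lay between -0.25 and 0.09, and the median of all 13 was -0.12. That direction turned without shScr replicate 1, to a median of 0.17 with 8 genes higher, and on log2 RPM, to 0.01 with 7 higher. Without overlap, 4 of 13 genes were lower in shTet2, against 21.1% of rows, and 0 were higher, against 25.9%.

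The reads of mt-Nd4, mt-Nd5 and mt-Cytb were also set against all mitochondrial reads of the same library, a share that does not depend on scaling between libraries. The 3 genes were singled out after their values were seen, so no test was made. The shScr libraries gave 8.42% and 6.47%, those of shTet1 gave 9.27% and 5.67%, and those of shTet2 gave 4.97% and 4.82%. Both libraries of shTet2 were below the 4 others. The spread within shTet1 was, however, wider than the gap between the groups.

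The direct comparison of shTet2 with shTet1 gave a median of 0.28 over the 13 genes, with 10 higher and 3 lower means. No gene was called, with a background of 2.47%, and 1 had an unadjusted p under 0.05 (limma), against 18.9% of all rows. This was mt-Nd1, at 14.74 and 14.95 in shTet2, with a difference of 0.52 (95% interval 0.00 to 1.04, limma adjusted p = 0.263). Without overlap, 5 genes were higher in shTet2, against 30.9% of rows, and 1 was lower, against 26.1%. These 3 comparisons share their groups, and the 3 genes with lower means in shTet2 were mt-Nd4, mt-Nd5 and mt-Cytb.

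**Figure D4:**
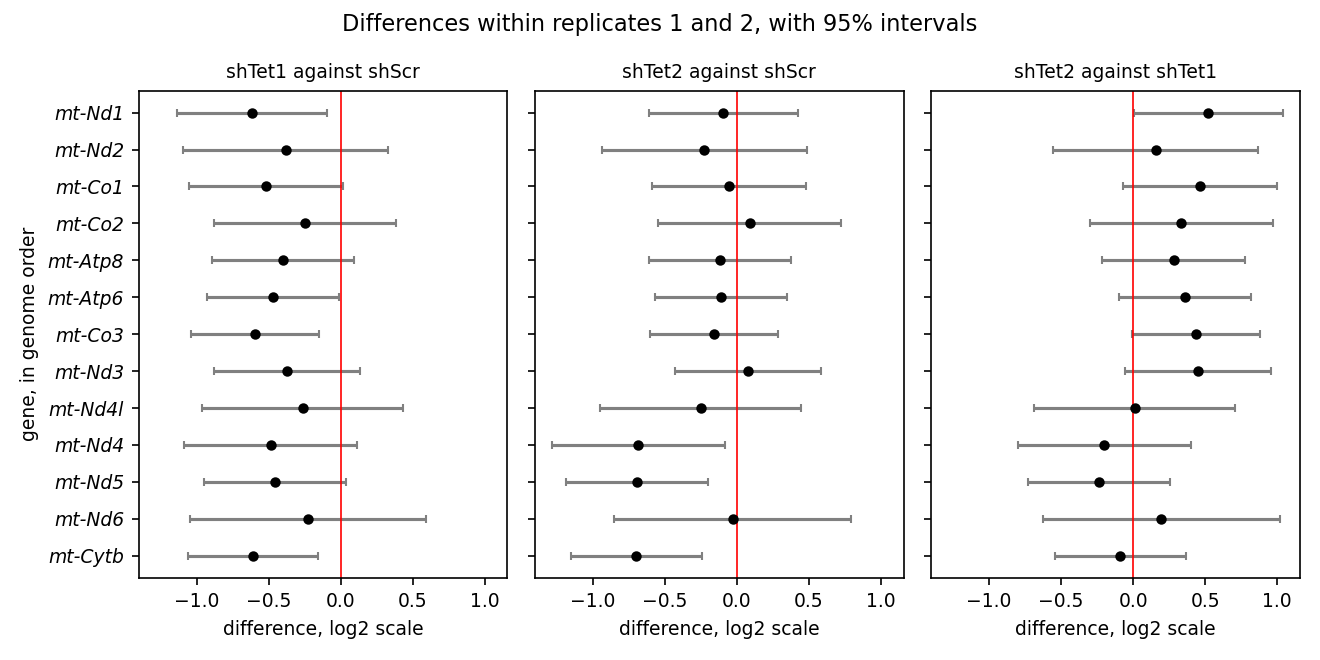
Difference on the log2 scale (horizontal) of each of the 13 genes (vertical, genome order) in 3 comparisons within replicates 1 and 2, with 95% intervals from limma. All 13 points of shTet1 against shScr lie below 0, the 3 lowest points of shTet2 against shScr are mt-Nd4, mt-Nd5 and mt-Cytb at -0.70 to -0.69, and no gene passed the threshold after adjustment.

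Genes of the nucleus that act on mitochondrial RNA and respiration were read in 10 lists over all 15 libraries. Of their 240 entries, 233 had a row and all 233 were tested. None was called in shTet1 against shScr or in shTet2 against shScr, where 5 and 12 had an unadjusted p under 0.05 (limma), against 11.8% and 11.6% of all rows. In shTet2 against shTet1, 3 were lower, against 1.36% of all rows in that direction, and 0 higher. This share of the 233 was near the background. The median of all rows was 0.01, 0.04 and 0.01 in the 3 comparisons, and medians of 5, 9 and 10 of the 10 lists lay below it. They ranged from -0.08 to 0.18 in shTet1 against shScr and from -0.19 to 0.05 in shTet2 against shScr. In shTet2 against shTet1 they ranged from -0.32, for the 4 complex II subunits, to -0.04. All 11 nuclear complex IV subunits had a lower mean in shTet2 than in shTet1, with a median of -0.21 and 0 of 11 called.

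The genes that drive and maintain the mitochondrial transcripts did not pass the test in any comparison. Polrmt, the RNA polymerase, was at 9.34 ± 0.25 (shScr), 9.10 ± 0.18 (shTet1) and 9.34 ± 0.19 (shTet2), on the log2 scale with SD over 5 libraries. Tfam was at 12.19 ± 0.25, 12.04 ± 0.24 and 12.12 ± 0.11 in the same order. Tfb2m, the initiation factor that opens the promoter, was at 8.85 ± 0.27, 8.81 ± 0.21 and 9.14 ± 0.23. Lrpprc, which stabilises mitochondrial mRNAs, was at 13.47 ± 0.20, 13.33 ± 0.13 and 13.43 ± 0.12. Polg, the catalytic subunit of the DNA polymerase that copies the genome, was at 11.23 ± 0.41, 11.29 ± 0.27 and 11.08 ± 0.29. For these 5 genes the groups differed by 0.33 or less. Ppargc1a, a coactivator of mitochondrial biogenesis, had at most 15 reads in a library, and Slirp, the partner of Lrpprc, had no row.

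The 3 nuclear genes called in shTet2 against shTet1 were Sdhc, Ppargc1b and Ndufb8. Sdhc, a membrane anchor of complex II, was at 10.03 ± 0.19 in shTet2, 10.72 ± 0.16 in shTet1 and 10.55 ± 0.31 in shScr (SD, n = 5 each). The difference of shTet2 from shTet1 was -0.69 (limma adjusted p = 0.0113), and these groups did not overlap. Ppargc1b, a relative of Ppargc1a, was at 5.73 ± 0.21 in shTet2, 6.52 ± 0.45 in shTet1 and 5.66 ± 0.30 in shScr. Its difference was -0.79 (limma adjusted p = 0.037), from 10 to 158 reads per library. Ndufb8, an accessory subunit of complex I, was at 10.97 ± 0.21, 11.53 ± 0.25 and 11.25 ± 0.27, with a difference of -0.56 (limma adjusted p = 0.0468). Each of the 3 was lower in all 26 alternative fits, but the call was lost in 2 of them for Sdhc, in 12 for Ppargc1b and in 15 for Ndufb8. None was called within replicates 1 and 2 or within replicates 3 to 5 alone.

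The main fits and the permutation tests were unpaired, and the replicate number entered only as a block in alternative fits. Same-numbered libraries of shTet1 and shScr, and of shTet2 and shTet1, were correlated. The split of the replicates enters these correlations, so pairing by number was not shown. With the number as a block, 4 of 233 nuclear genes were called in shTet1 against shScr, against 4.8% of all rows. They were Ppargc1b (0.86), Ndufs6 (0.62), Sdha (0.42) and Elac2 (-0.47), and Elac2 cuts tRNAs from precursor RNA at their 3' ends. In shTet2 against shTet1, 8 were called with the block, all 8 lower, against 11.2% of all rows in either direction and 4.65% lower. Besides Sdhc, Ppargc1b and Ndufb8 these were Sdhd, Uqcrc1, Mrpl4, Mrpl27 and Mrpl37, with differences from -0.53 to -0.33. No mitochondrial gene was called with the block.

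The zeros also weighed on measures taken over the whole table. The 13 mitochondrial genes, among 19490 tested rows, held 13.1% of the sum of squared deviations from the group means. The first principal component of these deviations held 37.9% of their variance with the 13 genes and 28.9% without them. It separated replicates 1 and 2 from replicates 3 to 5 in both cases. The correlation of same-numbered libraries of shTet1 and shScr, across rows, ranged from 0.374 to 0.657 with the 13 genes and from 0.247 to 0.626 without them. Rows are not independent replicates, and these values are descriptions. The split of the replicates was thus present outside the mitochondrial genome, though smaller in share.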

How the data were processed

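RNA of E14 cells was measured in 15 libraries, 5 per group, and groups were taken from the sample labels. The authors trimmed reads with Trim Galore 0.3.3, aligned them to mm9 with Tophat 2.0.9 and kept a read with several best positions at 1 of them. Reads were counted per gene by the authors in Seqmonk and normalised by the authors with DESeq2. The deposited values are variance-stabilised log2-like values, with a minimum of 4.25 where no read was counted. Inverting the transformation recovered whole reads in 100% of values (tolerance 0.001). The table of repeats was not used.

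Differences were computed on the deposited log2 values with limma 3.58.1 in R 4.3.3 (eBayes with trend, two-sided, Benjamini-Hochberg over all tested rows, threshold 0.05), in 1 fit of 15 libraries. A row entered if it exceeded the minimum in 5 or more of the 15 libraries, and within replicates 1 and 2 also in 2 or more of those 6. Single genes had a two-sided exact permutation test. The procedure was tested on simulated data. Reads per kilobase used GENCODE vM1 lengths. Nuclear copies were found with blastn 2.17.0 on mm9. All mitochondrial genes were named, as were Polrmt, Tfam, Tfb2m, Lrpprc, Slirp, Polg and Ppargc1a, and at most 4 called genes per nuclear list and comparison. Genes called only under an alternative, and Gm10222, Gm10925 and Lefty1, were named after the values were seen. Members and lists were chosen with earlier results of these data known.

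Pairing was checked across rows by the correlation, for equal replicate numbers, of values after subtracting the group mean. It lay at 0.374 to 0.657 for shTet1 with shScr and at 0.330 to 0.731 for shTet2 with shTet1, and these were treated as paired. For shTet2 with shScr it was as low as 0.0079, and this comparison was not.

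Alternatives covered the filter, variance trend, libraries in the fit, scaling, the replicate block, the split of the replicates, the receptor reads and leaving out each library. The ratio of mitochondrial rRNA and tRNA to mRNA was planned and is not analysed here. Intervals are those of limma and rest on the spread between libraries. With 2 libraries per group, differences under 0.44 to 0.82 on the log2 scale, depending on the gene, could not be resolved before adjustment. After adjustment even -0.70, for mt-Cytb in shTet2 against shScr, was not called.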

Additional observations from a re-analysis of the deposited data

Results flagged for a closer look

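Of 45 groups of 5 libraries examined (nuclear rows, their sums with mitochondrial genes, targets and named nuclear genes), 3 had a library far from the other 4, and chance gives about 1 in 20. Gm10925 was at 13.97 in shScr replicate 2, with the nearest library at 14.50. Ndufb8 was at 10.61 in shTet2 replicate 3. Sdhc was at 10.45 in shTet1 replicate 2, with the nearest at 10.72.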

How the results depend on the processing

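No mitochondrial gene was called in any of 24 settings that included libraries at 0, or in the fits within replicates 1 and 2 with 2 libraries per group, over 3 comparisons each. The former take the listed 0 as values and the latter rest on few libraries. The number of settings therefore does not show an absence of change. The lowest adjusted p was 0.0516 (limma), for shTet1 against shScr within replicates 1 and 2 after median centring. In that fit 6.24% of all rows were called, and the median over all rows was -0.13. On log2 RPM of the same libraries, the lowest adjusted p of that comparison was 0.187 (limma). With the replicate block over 15 libraries the lowest was 0.304, 0.294 and 0.363 in the 3 comparisons. Requiring values in all 15 libraries, or using only replicates 3 to 5, left 0 mitochondrial rows. The median of the 13 differences over 15 libraries ranged from -1.54 to 1.28, from -1.57 to 1.29 and from -1.38 to 1.34 when 1 library was left out, since a group then held another share of libraries at 0. With the receptor reads as a covariate it was 0.13, 0.86 and 0.73.

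Within replicates 1 and 2 (alternatives chosen after seeing the data), leaving out 1 library gave medians from -0.70 to -0.20 for shTet1 against shScr. The lone library left in a group is then assumed to vary like the others. For shTet2 against shScr they ranged from -0.38 to 0.17, so the direction rests on the shScr library used, and for shTet2 against shTet1 from 0.16 to 0.40. Leaving out shScr replicate 1 gave -0.20 and 0.17, and leaving out shScr replicate 2 gave -0.70 and -0.38. On log2 RPM (pseudocount 1) the median of shTet1 against shScr was -0.35, with all 13 genes lower. That of shTet2 against shScr was 0.01, with 7 genes higher and 6 lower.

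The share of mitochondrial reads, without 1 library, was 1.99% to 2.40% in shScr, 1.47% to 1.91% in shTet1 and 2.09% to 2.37% in shTet2. An alternative denominator without mitochondrial rRNA and tRNA rows, and their ratio to mRNA, gave no value.

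Nuclear genes called in shTet1 against shScr numbered 4 of 233 with the replicate block, 1 with the split as a term and 2 within replicates 1 and 2, where 4.80%, 1.35% and 1.99% of all rows were called. In shTet2 against shScr they numbered 5 with the block (4.31% of all rows), where the correlation of the libraries of replicate 3 was 0.0079. In shTet2 against shTet1 they numbered 8 with the block (11.2% of all rows), 5 with the split as a term (6.48%), 1 with no filter (3.08%), 1 with only these groups in the fit (3.96%), 0 within either set of replicates (2.47% and 0.796%), and 1 to 3 without 1 library. The call count fell to 1 without shTet1 replicate 2 or 3 or without shTet2 replicate 2, 3 or 4. The cause was not tested.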
